A study of Homo sapiens with 14 samples.

Results

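The S100 proteins were followed through the RNA sequencing libraries of 2 pancreatic cancer cell lines. The members were the 10 rows of the deposited gene tables whose symbol was S100A2, S100A3, S100A4, S100A6, S100A8, S100A9, S100A11, S100A14, S100A16 or S100P, out of 23040 genes and 21 genes with an S100 symbol. The lines were Panc-1 and AsPC-1, both established human lines, and each had 7 libraries of total RNA, 1 per condition. The conditions were mock, angiogenin (ANG, also called hRNase5, a secreted ribonuclease) at 1 µg/ml for 1, 5 or 24 h, and epidermal growth factor (EGF, which binds the receptor EGFR) at 50 ng/ml for 1, 5 or 24 h. Treated cells were serum-starved. The labels name no gene edit or transgene in any group, and they give neither the time at which the mock cells were taken nor whether those cells were serum-starved. No condition had a second library in its line, so every p-value below measures only the spread between these libraries. Because the ligands were given at unequal doses, EGF against ANG compares those treatments and not the ligands at a matched dose.

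S100 proteins are small calcium sensors that act as dimers. Each monomer carries a pair of EF-hand loops, and calcium binding opens a surface that docks onto partners such as annexins, ezrin and non-muscle myosin. Some members are also released from cells and are ligands of the receptors RAGE (gene AGER) and TLR4, and S100P, S100A4 and S100A6 are well known as abundant transcripts of pancreatic ductal adenocarcinoma.

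All but S100P lie in the 1q21 gene cluster. In the coordinates of the files (hg19), 17 S100 genes, 9 of them members, fell within chromosome 1, 151955386 to 153606568, a stretch of 1.65 Mb. S100A2 was at 153533585 to 153538306, S100A3 at 153519809 to 153521734, S100A4 at 153516095 to 153518282, S100A6 at 153507076 to 153508717, S100A14 at 153586732 to 153588790 and S100A16 at 153579367 to 153585514, all on the minus strand. S100A11 lay apart at 152004982 to 152009511 on the minus strand, S100A8 at 153362508 to 153363549 (minus) and S100A9 at 153330330 to 153333503 (plus). S100P was alone on chromosome 4, 6695566 to 6698897, plus strand. The stretch on chromosome 1 also held 46 genes of other families, many of the epidermal differentiation complex, and 0 of these reached 1 RPKM in any library (highest 0.27 RPKM, LCE1F). RPKM is reads per kilobase of transcript per M mapped reads, so levels of different genes can be set side by side.

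The promoter windows shown here belong to the 3 members whose levels varied most within a line (S100A2, S100A14 and S100P) and to S100A3, which went in opposite directions in the lines. Each is the 250 bases before a RefSeq transcript start (GRCh38.p14), 5′ to 3′ on the gene's strand, and capitals mark a match to the AP-1 motif TGANTCA (searched on both strands) or the TATA box TATAAA (gene strand). The windows are chr1:153565845-153566094 (minus) for S100A2, chr1:153549259-153549508 (minus) for S100A3, chr1:153616326-153616575 (minus) for S100A14 and chr4:6693628-6693877 (plus) for S100P.
S100A2: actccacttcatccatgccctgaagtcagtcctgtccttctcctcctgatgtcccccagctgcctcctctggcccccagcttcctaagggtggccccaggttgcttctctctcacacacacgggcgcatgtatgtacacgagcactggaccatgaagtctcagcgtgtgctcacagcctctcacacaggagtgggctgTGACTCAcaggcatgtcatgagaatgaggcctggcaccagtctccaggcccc
S100A3: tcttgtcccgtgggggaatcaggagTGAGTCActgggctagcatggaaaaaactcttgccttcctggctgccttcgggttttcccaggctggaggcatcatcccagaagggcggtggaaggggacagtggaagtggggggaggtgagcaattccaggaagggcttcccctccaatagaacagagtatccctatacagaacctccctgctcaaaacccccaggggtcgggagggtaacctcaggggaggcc
S100A14: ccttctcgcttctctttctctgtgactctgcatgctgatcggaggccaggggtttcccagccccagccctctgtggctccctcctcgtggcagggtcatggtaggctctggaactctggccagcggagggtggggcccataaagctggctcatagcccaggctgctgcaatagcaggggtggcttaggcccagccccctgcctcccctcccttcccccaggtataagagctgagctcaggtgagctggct
S100P: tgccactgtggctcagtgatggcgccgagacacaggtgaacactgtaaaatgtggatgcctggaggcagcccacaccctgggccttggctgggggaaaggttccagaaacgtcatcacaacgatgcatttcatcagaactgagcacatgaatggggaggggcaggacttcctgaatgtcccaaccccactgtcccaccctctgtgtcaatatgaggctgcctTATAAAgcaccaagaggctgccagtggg

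All 10 members had a window in the RefSeq table, 14 windows in all. With the 50 bases after the start included, the AP-1 letters stood in 2 of the 14 windows, TGACTCA at position -52 of S100A2 and TGAGTCA at position -225 of S100A3, counted to the start of the transcript. Among all 35116 windows of 300 bases, 7.71% held these letters, and a second S100A2 window held none. TATAAA stood in 5 of the 14 windows and in 7.33% of all windows. It was at position -28 in S100P, -31 in S100A4 and -29 in S100A8 and S100A9. The TEAD letters GGAATG (both strands) were in 2 windows of S100A16 and in 14.03% of all windows. The cyclic AMP response element TGACGTCA (both strands) was in no member's window and in 1.85% of all windows. No matches overlapped within a member's window. A match describes the letters only; binding was not measured in these files.

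The Panc-1 libraries held an estimated 11.1 to 16.6 M reads and the AsPC-1 libraries 18.6 to 23.5 M, and 1 read per kilobase of transcript was worth 0.0425 to 0.0904 RPKM. Genes with a span under 400 bp, mostly small RNAs, took 5.11 to 17.2% of the reads. Ductal epithelial markers were present in every library: the summed level of KRT7, KRT8, KRT18, KRT19, EPCAM and CDH1 was between 899 and 1378 RPKM in Panc-1 libraries and between 1887 and 2463 RPKM in AsPC-1 libraries. Of 9 myeloid markers, 3 reached 1 RPKM in each line, led by CD68 in Panc-1 and by LYZ and CD68 in AsPC-1, and the leukocyte gene PTPRC was listed at 0.05 RPKM at most. None of the 6 lymphocyte, 5 endothelial, 6 acinar and islet and 4 erythroid markers reached 1 RPKM in any library; of 6 fibroblast markers only LUM did, in AsPC-1 (26.5 to 46.3 RPKM). In bulk RNA, fewer cells with a transcript and less transcript per cell cannot be told apart.

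S100A6, calcyclin, which binds annexins and the ubiquitin ligase adaptor CACYBP, was the most abundant family member in Panc-1. Its level in Panc-1 was 2079 RPKM in mock, 1958, 1986 and 1784 RPKM after 1, 5 and 24 h of ANG, and 2057, 1989 and 2250 RPKM after 1, 5 and 24 h of EGF. In AsPC-1 the same order of libraries gave 1963 RPKM in mock, 2876, 2757 and 1932 RPKM with ANG, and 3241, 3376 and 2166 RPKM with EGF. The 4 AsPC-1 libraries of 1 and 5 h were higher than every Panc-1 library, while the other 3 fell inside the Panc-1 range.

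S100A4, which binds non-muscle myosin heavy chain and is named metastasin for its part in cell motility, was the member with the smallest within-line spread among those expressed. Its level was between 305 and 403 RPKM in Panc-1 (median 377) and between 2038 and 2480 RPKM in AsPC-1 (median 2156), with the highest library 1.32 and 1.22 times the lowest. The ranges of the lines did not overlap. In AsPC-1 its order against S100A6 was not fixed: S100A6 was above S100A4 in 4 of 7 libraries. In Panc-1 alone the ratio of the highest to the lowest library was smaller for S100A6 (1.26) and S100A11 (1.27) than for S100A4.

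S100A11, the annexin A1 partner calgizzarin, stood at 345 RPKM in Panc-1 mock, 291, 274 and 312 RPKM after 1, 5 and 24 h of ANG and 284, 313 and 348 RPKM after 1, 5 and 24 h of EGF. In AsPC-1 it was 411 RPKM in mock, 673, 631 and 414 RPKM with ANG, and 698, 729 and 577 RPKM with EGF. Every AsPC-1 library exceeded every Panc-1 library, and within AsPC-1 the mock and ANG 24 h libraries were the lowest. S100A11 has processed copies elsewhere in the genome, and how the counting treated reads shared with them is not given in the sources used here.

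S100A16, a broadly expressed member encoded next to S100A14, was 63.0 RPKM in Panc-1 mock, 52.9, 50.4 and 61.9 RPKM after 1, 5 and 24 h of ANG, and 55.0, 73.2 and 92.2 RPKM after 1, 5 and 24 h of EGF. In AsPC-1 it was 350 RPKM in mock, 865, 840 and 359 RPKM with ANG, and 1023, 1306 and 692 RPKM with EGF. The AsPC-1 libraries of 1 and 5 h lay above the 3 others, and EGF 24 h lay between them and mock. In Panc-1 the highest library was EGF 24 h.

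S100P, a secreted ligand of RAGE that also binds ezrin, was 13.1 RPKM in Panc-1 mock, 8.61, 11.3 and 7.34 RPKM after 1, 5 and 24 h of ANG, and 11.7, 8.59 and 12.8 RPKM after 1, 5 and 24 h of EGF. In AsPC-1 it was 84.2 RPKM in mock, 320, 337 and 88.4 RPKM with ANG, and 376, 421 and 112 RPKM with EGF. No Panc-1 library exceeded its mock, whereas the AsPC-1 libraries of 1 and 5 h were 3.81 to 5.00 times mock.

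S100A14, an epithelial member, was under 1 RPKM in all of Panc-1 (0.23 to 0.88 RPKM, 3.7 to 11.4 estimated reads per kilobase). In AsPC-1 it was 14.5 RPKM in mock, 69.1, 72.5 and 13.9 RPKM after 1, 5 and 24 h of ANG, and 75.2, 121 and 43.6 RPKM after 1, 5 and 24 h of EGF. The libraries fell in the same order of groups as for S100A16: 1 and 5 h highest, EGF 24 h between, mock and ANG 24 h lowest.

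S100A2, a mainly nuclear member of basal and squamous epithelia that binds p53, was 0.80 RPKM in Panc-1 mock, 2.96, 3.10 and 2.64 RPKM after 1, 5 and 24 h of ANG, and 3.36, 5.48 and 2.43 RPKM after 1, 5 and 24 h of EGF. Those Panc-1 levels rest on 12.3 estimated reads per kilobase in mock and 30.8 to 60.6 in the treated libraries. In AsPC-1 it was 11.1 RPKM in mock, 50.6, 47.4 and 10.8 RPKM with ANG, and 44.8, 116 and 29.3 RPKM with EGF. All 6 treated Panc-1 libraries and 5 of 6 treated AsPC-1 libraries were above their mock, and the 5 h EGF library was the highest in both lines.

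S100A3, best known from the hair cuticle, was the member with a higher level in Panc-1. It was 11.9 RPKM in Panc-1 mock, 7.0, 7.67 and 9.37 RPKM after 1, 5 and 24 h of ANG, and 7.25, 9.09 and 14.4 RPKM after 1, 5 and 24 h of EGF. In AsPC-1 it was 0.28 RPKM in mock, 1.87, 1.83 and 0.45 RPKM with ANG, and 2.19, 2.84 and 0.61 RPKM with EGF, or 6.6 to 64.1 estimated reads per kilobase. The 1 h and 5 h libraries were below mock in Panc-1 and above it in AsPC-1.

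S100A8 and S100A9, the subunits of calprotectin and the family's abundant genes in neutrophils and monocytes, were at or near the bottom. S100A8 was listed at 0 in all 14 libraries. S100A9 was listed at 0 in 12 and at 0.10 and 0.11 RPKM in Panc-1 after 1 and 24 h of ANG.

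**Figure D1:**
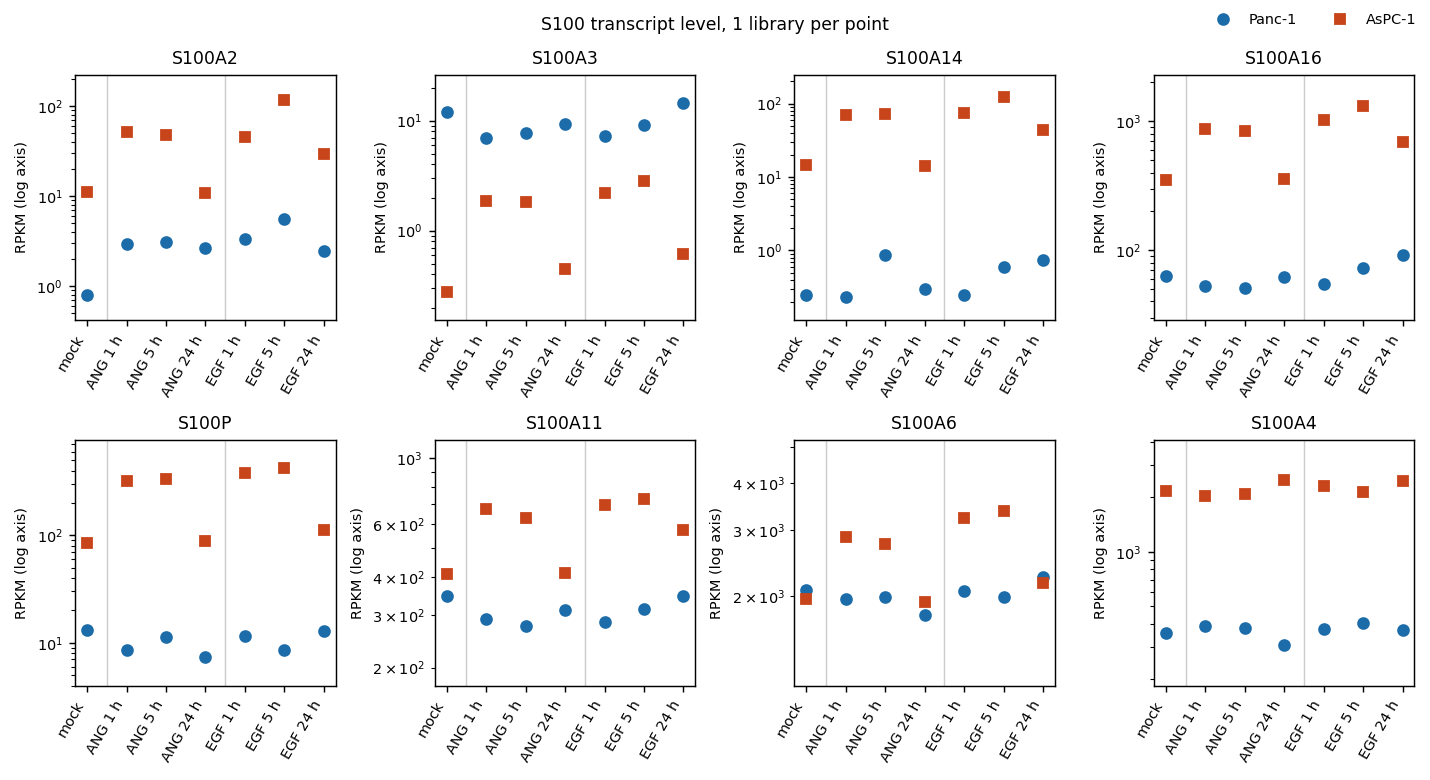
Level of the 8 expressed members (RPKM, log axis) in each library, by condition; circles are Panc-1, squares AsPC-1, 1 library per point, and the axis range differs between panels. For S100A3, S100A6, S100A11, S100A14, S100A16 and S100P the AsPC-1 squares of 1 and 5 h stand above mock and ANG 24 h. The Panc-1 circles of these members do not show that pattern. For S100A2 both lines show it, and for S100A4 the Panc-1 circles alone do.

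By median level the order in Panc-1 was S100A6, then S100A4, S100A11, S100A16, S100P, S100A3, S100A2 and S100A14. S100A4 exceeded S100A11 in 6 of 7 libraries and S100P exceeded S100A3 in 4 of 7, so those neighbours did not differ beyond their spread; the other steps of this order held in all 7 libraries. In AsPC-1 the order was S100A6, S100A4, S100A16, S100A11, S100P, S100A14, S100A2 and S100A3. There S100A16 exceeded S100A11 in 5 of 7 libraries. The 21 S100 genes summed to between 2821 and 3418 RPKM in Panc-1 libraries and to between 5614 and 8776 RPKM in AsPC-1 libraries. S100A6 made up 61.2 to 65.8% of that sum in Panc-1 and 32.3 to 38.7% of the AsPC-1 sum, where S100A4 made up 24.3 to 42.1%.

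Among the 11 S100 genes that were not members, S100A10, S100A13, S100A1 and S100A5 reached 1 RPKM. S100A10, the partner of annexin A2, was between 291 and 417 RPKM in Panc-1 libraries and between 434 and 565 RPKM in AsPC-1 libraries. S100A13 was 29.2 to 33.7 and 48.3 to 63.6 RPKM, and its span overlaps that of S100A1, so that their reads cannot be told apart without strand, whose use is not given in the sources used here. S100A1 (0.16 to 1.78 RPKM) and S100A5 (0.45 to 2.34 RPKM) stayed low over both lines.

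To compare the lines, AsPC-1 was set against Panc-1 within each of the 7 conditions, with limma on log2(RPKM + 1). S100A8 and S100A9 did not pass the filter of 1 RPKM in 2 libraries. S100A14 passed it through AsPC-1 alone, so that the filter favoured a difference, and its levels in the lines are given above as a description only. Of the other 7 members, which passed the filter within each line, 5 were higher in AsPC-1 and 1 was lower. Of all 13427 genes tested, 68.8% differed between the lines (29.3% higher, 39.6% lower), and of the 11107 that passed the filter within each line 64% did (27.9% higher, 36% lower), so differing is the common state here. The median of the 7 members was 2.59 on the log2 scale, against -0.10 for those 11107 genes.

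S100P was higher by 4.18 ± 0.37 (log2, SE; limma adjusted p = 1.2e-05), S100A16 by 3.46 ± 0.26 (4.87e-06) and S100A2 by 3.20 ± 0.26 (7.81e-06). S100A4 was higher by 2.59 ± 0.11 (1.13e-07) and S100A11 by 0.90 ± 0.16 (8.43e-04). For S100A3 the difference was -2.18 ± 0.30 (2.06e-04), the opposite direction to the other 5. Each of these 6 members kept its direction in 7 of 7 conditions, the smallest p an exact sign-flip test over 7 conditions can give being 0.0156, two-sided. S100A6 differed by 0.35 ± 0.15 (limma adjusted p = 0.0755, 5 of 7 conditions), with a 95% interval of -0.01 to 0.70. S100A13 was higher in AsPC-1 by 0.86 ± 0.07, S100A10 by 0.50 ± 0.11, and S100A1 reached the filter in 1 line only. Cell type markers moved with this comparison. Of the 6 ductal markers 5 were higher in AsPC-1. Of the myeloid markers, LYZ (5.58 ± 0.36) and CD68 (0.62 ± 0.13) were higher, and the summed level of the 9 was between 31.3 and 51.2 RPKM in Panc-1 libraries and between 171 and 546 RPKM in AsPC-1 libraries, with FCGR3A at 0 throughout. The myeloid marker CD14 and the fibroblast marker LUM were higher in AsPC-1 as well, but passed the filter there alone. The part of these markers in the S100 differences was not tested.

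Each treatment was next compared with mock in a model of line and condition over all 14 libraries. The 6 comparisons share both mock libraries, so they are not independent of each other. Since the labels leave the serum state and time of the mock cells unstated, a difference in these and the treatment itself cannot be told apart. Only S100A2 passed the test, and only after 5 h of EGF, where it was 6.85 times mock in Panc-1 and 10.4 times mock in AsPC-1. Its log2 difference was 2.56 ± 0.49 (limma adjusted p = 0.0342), 1 of 8 members against 4.22% of all genes in that comparison (0.596% higher, 3.63% lower). The call was lost without any of 12 of the 14 libraries, all but those of 24 h of ANG; the difference was then 1.99 to 3.12 and the limma adjusted p 0.05 to 0.231, the last without AsPC-1 mock. It was also lost with libraries centred on their median (2.76, adjusted p = 0.0544) or with no filter on low values (adjusted p = 0.0527).

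At the other times S100A2 was above mock by 1.62 ± 0.49 after 1 h of ANG (limma adjusted p = 0.186), 1.59 ± 0.49 after 5 h of ANG (0.157), 1.60 ± 0.49 after 1 h of EGF (0.153) and 1.13 ± 0.49 after 24 h of EGF (0.68), none of which passed. After 24 h of ANG it was 2.64 RPKM against 0.80 in Panc-1 mock and 10.8 against 11.1 in AsPC-1 mock, a difference of 0.49 ± 0.49 with a 95% interval of -0.64 to 1.62. No member passed after 1 h of ANG (0.0819% of all genes did), 5 h of ANG (0.112%), 24 h of ANG (0%), 1 h of EGF (0.663%) or 24 h of EGF (0%). At an unadjusted p under 0.05, 2061, 2388, 202, 2307 and 959 genes passed in those comparisons, among them S100A2 in each but that of 24 h of ANG.

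Other members had large differences in AsPC-1 that the model over both lines did not call. S100A14 after 5 h of EGF was 8.35 times mock in AsPC-1 and 2.40 times in Panc-1, where it stayed under 1 RPKM; its difference was 1.67 ± 0.68 (limma adjusted p = 0.195). S100P after 5 h of EGF was 5.00 times mock in AsPC-1 and 0.66 times in Panc-1 (0.88 ± 0.69, adjusted p = 0.47), and S100A16 was 3.73 and 1.16 times mock (1.06 ± 0.49, adjusted p = 0.252). For S100A3 the same treatment gave 10.2 times mock in AsPC-1 and 0.77 times in Panc-1. In AsPC-1, 7 members stood above mock in RPKM in the 1 h and 5 h libraries of both ligands, S100A4 being the exception, but with 1 mock library that is a description of those libraries. The share of all genes that stood above mock in this way was not counted, so the 7 cannot be set against it.

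The median difference of the 8 members was 0.38 after 1 h of ANG, 0.38 after 5 h, -0.04 after 24 h, 0.51 after 1 h of EGF, 0.75 after 5 h and 0.27 after 24 h. Over all genes the same medians were -0.13, -0.17, -0.09, -0.12, -0.16 and -0.13. Centring the libraries on their medians moved the median of all genes by over 0.1 in most of these (to 0.035 after 1 h of ANG, 0.036 after 5 h of ANG and 0.049 after 5 h of EGF). In the estimates over both lines, all 8 members stayed above mock under both rescalings except after 24 h of ANG. There 3 of 8 were above it as deposited and 6 of 8 when rescaled. These estimates average the lines, which did not move alike. In Panc-1 after 1 h of ANG, S100A2 (1.14) and S100A4 (0.13) were above mock. S100A3 (-0.69), S100P (-0.55), S100A11 (-0.25), S100A16 (-0.25), S100A6 (-0.09) and S100A14 (-0.02) were below it.

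**Figure D2:**
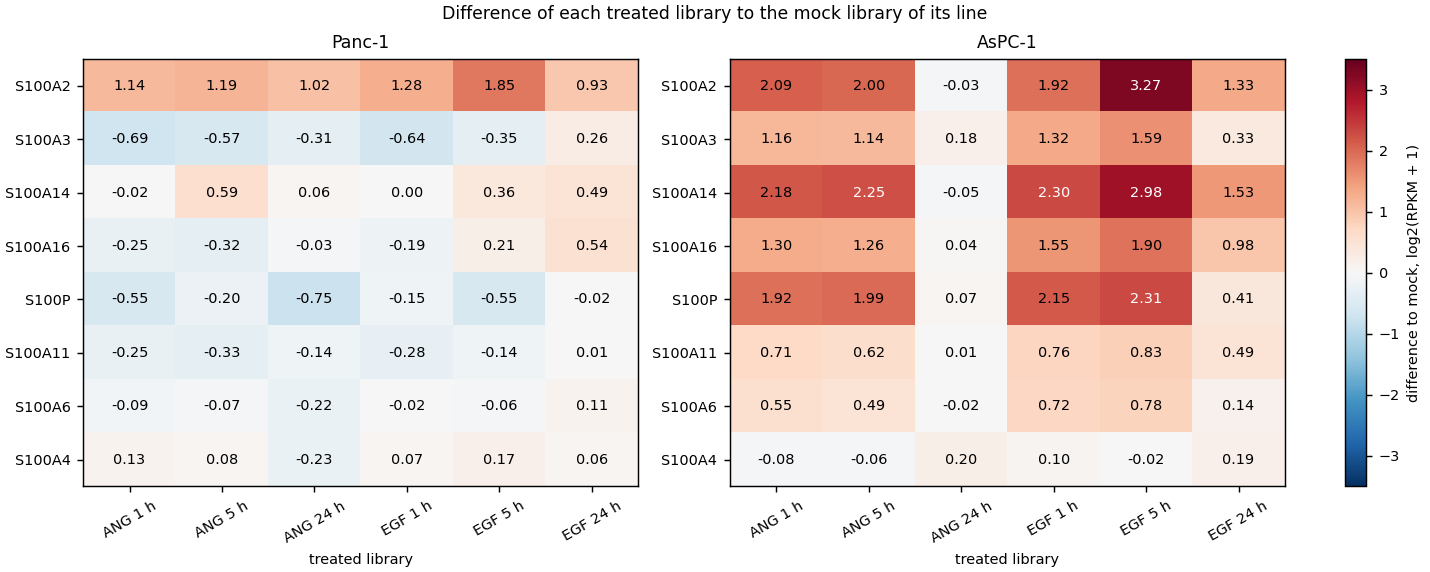
Difference of each treated library to the mock of its line on the log2(RPKM + 1) scale, written in each cell, for 8 members (rows) and 6 treatments (columns) in Panc-1 (left) and AsPC-1 (right). On the AsPC-1 side the columns of 1 and 5 h are red for all but S100A4 and the ANG 24 h column is near 0 (-0.05 to 0.20); in Panc-1 only the S100A2 row reaches 0.93 or more.

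EGF was compared with ANG within the 6 pairs of libraries of the same line and time, without the mock libraries. All 8 members had a mean difference above 0, with a median of 0.27 against -0.02 for all genes, but 0 of 8 passed the limma test, as did 0.156% of all genes (21 genes, 0.142% higher and 0.0149% lower; 2146 at an unadjusted p under 0.05, 4 members among them). S100A16 was 1.04, 1.45 and 1.49 times as high with EGF as with ANG at 1, 5 and 24 h in Panc-1, and 1.18, 1.56 and 1.93 times in AsPC-1. All 6 pairs went the same way; the difference was 0.50 ± 0.11 (log2, SE; 95% interval 0.24 to 0.75; limma adjusted p = 0.134). S100A3 was also higher in 6 of 6 pairs, by 0.26 ± 0.08 (limma adjusted p = 0.213), and S100A6 in 6 of 6, by 0.17 ± 0.13 (adjusted p = 0.515). For S100A6 the Panc-1 pair at 5 h was nearly level, 1989 RPKM with EGF against 1986 RPKM with ANG. An exact two-sided sign-flip test gave 0.0312 for these 3 members, the smallest value 6 pairs allow, before any correction for the 8 members.

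S100A14 showed its widest gap at 24 h in AsPC-1, 43.6 RPKM with EGF against 13.9 RPKM with ANG, or 3.13 times; over the 6 pairs it differed by 0.44 ± 0.21 (limma adjusted p = 0.338, 5 of 6 pairs). S100A2 was 2.44 and 2.71 times as high with EGF at 5 and 24 h in AsPC-1 but 0.89 times at 1 h, which gave 0.53 ± 0.22 (adjusted p = 0.29, 4 of 6 pairs). S100P differed by 0.28 ± 0.12 (adjusted p = 0.301, 5 of 6), S100A11 by 0.17 ± 0.08 (0.337, 5 of 6) and S100A4 by 0.09 ± 0.09 (0.647, 4 of 6). The intervals of S100A11 (-0.01 to 0.36), S100A4 (-0.12 to 0.29), S100A6 (-0.12 to 0.47) and S100A14 (-0.04 to 0.92) include 0, which leaves a difference of that size possible.

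Whether the gap between EGF and ANG depended on the line was tested in the same pairs. No member passed (0% of all genes did; 1038 genes and 0 members at an unadjusted p under 0.05); the estimate was largest for S100A14, 0.74 ± 0.36 (limma adjusted p = 0.66). Within AsPC-1 alone S100A14 differed by 0.81 ± 0.25 (adjusted p = 0.19), S100A2 by 0.82 ± 0.29 (0.223) and S100A16 by 0.61 ± 0.16 (0.142); 0% of all genes passed there or within Panc-1. By time, S100A16 differed between the ligands by 0.15 ± 0.14 at 1 h, 0.58 ± 0.14 at 5 h and 0.76 ± 0.14 at 24 h (limma adjusted p = 1, 0.78 and 0.271). At 1 h 0 members passed and 0.0745% of all genes did (0.067% higher, 0.00745% lower), and at 5 and 24 h 0% did. Without either Panc-1 library of 24 h, which leaves the AsPC-1 pair alone at that time, S100A2 and S100A14 passed at 24 h, as did 546 or 547 genes in all. The change of that gap from 1 h to 24 h was 0.61 ± 0.20 for S100A16 (adjusted p = 0.956), and no member passed the test of it (0.00745% of all genes did).

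**Figure D3:**
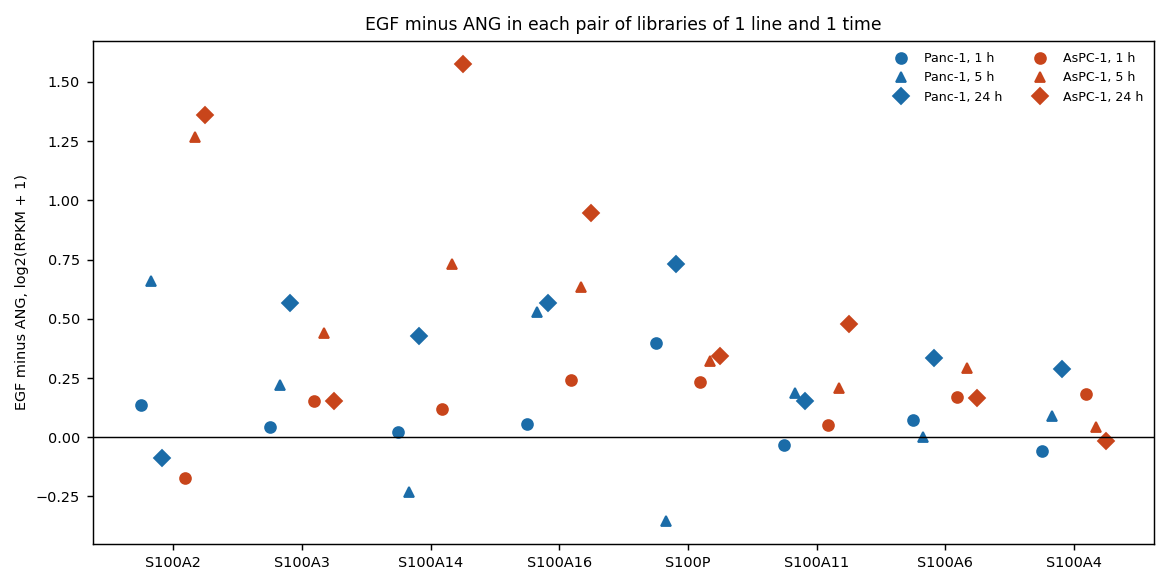
EGF minus ANG on the log2(RPKM + 1) scale in each of the 6 pairs, by member; colour marks the line and shape the time, and each point is a difference of 2 libraries. S100A16, S100A3 and S100A6 have no point below 0, and the highest point is S100A14 in AsPC-1 at 24 h (1.58).

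Time was compared within the 4 courses of 1 line and 1 ligand. From 1 h to 5 h no member passed (0% of all genes did; 149 genes and 0 members at an unadjusted p under 0.05). The S100A2 estimate was 0.47 ± 0.35 and its 95% interval -0.34 to 1.28. From 1 h to 24 h over both lines no member passed either (6.36% of all genes did, 3.44% higher and 2.92% lower), and the estimates ran from -0.91 ± 0.39 for S100P (limma adjusted p = 0.192) to -0.00 ± 0.14 for S100A4. The lines are given apart in the next paragraphs.

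In AsPC-1, 6 of 8 members fell from 1 h to 24 h, while 15.9% of all genes were lower and 24.8% higher there (40.7% in all). S100P fell from 320 to 88.4 RPKM with ANG and from 376 to 112 RPKM with EGF, a log2 difference of -1.79 ± 0.22 (limma adjusted p = 8.6e-04). S100A14 fell from 69.1 to 13.9 RPKM with ANG and from 75.2 to 43.6 RPKM with EGF (-1.50 ± 0.31, adjusted p = 0.00714). S100A2 (-1.36 ± 0.36, 0.0188), S100A3 (-0.99 ± 0.15, 0.00208), S100A16 (-0.91 ± 0.19, 0.00756) and S100A11 (-0.49 ± 0.14, 0.0304) fell with both ligands too. The S100A3 levels were low, from 1.87 to 0.45 RPKM with ANG and from 2.19 to 0.61 RPKM with EGF. The S100A11 call was lost in 8 of 17 alternatives, among them each that left out a treated Panc-1 library. S100A6 did not pass (-0.58 ± 0.25, adjusted p = 0.101), nor did S100A4 (0.19 ± 0.17, adjusted p = 0.432). The count rested on the ANG libraries: without AsPC-1 after 1 h of ANG 2 members passed (S100A3 and S100P), and without AsPC-1 after 24 h of ANG 3 did (those and S100A14).

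Markers of cell types moved in the same step in AsPC-1. Of the 6 ductal markers the adhesion gene CDH1 (-1.61 ± 0.25) and the keratin KRT7 (-1.20 ± 0.20) fell and none rose, while the summed level of the 6 went from 1904 to 1887 RPKM with ANG and from 2418 to 2047 RPKM with EGF. Of the 3 myeloid markers tested, CD68 (-0.735 ± 0.175) and CD14 (-0.49 ± 0.17) fell and LYZ (1.61 ± 0.30) rose; the summed level of the 9 listed went from 171 to 519 RPKM with ANG and from 176 to 245 RPKM with EGF, with PTPRC and FCGR3A at 0 in AsPC-1. The fibroblast marker LUM did not pass. The part of these markers in the fall of the members was not tested.

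In Panc-1, S100A3 was the only member that passed for the same step, from 7.0 to 9.37 RPKM with ANG and from 7.25 to 14.4 RPKM with EGF (0.64 ± 0.15, limma adjusted p = 0.0211), where 26.6% of all genes changed (11.3% higher, 15.2% lower). It lost the call without Panc-1 after 1 h of ANG (0.81, adjusted p = 0.0654), 1 h of EGF (0.46, 0.195) or 24 h of EGF (0.42, 0.162). S100A16 was 0.48 ± 0.19 (adjusted p = 0.102), S100A14 0.28 ± 0.31 (0.533), S100A11 0.19 ± 0.14 (0.35), S100P -0.04 ± 0.22 (0.927) and S100A2 -0.23 ± 0.36 (0.667).

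The difference between the lines in that step was itself tested, 2 courses against 2. Of the 7 members that passed the filter within each line, 4 passed this test, all with a lower value in AsPC-1 than in Panc-1. S100A3, among these 4, reached 1 RPKM in AsPC-1 only in the 1 h and 5 h libraries (1.83 to 2.84 RPKM). At 24 h it was 0.45 RPKM with ANG and 0.61 RPKM with EGF. It thus passed the AsPC-1 filter through the times where it was high, and its estimate is a description. The test was passed by 36% of all genes (13.9% lower, 22.2% higher) and by 38% of the genes that passed the filter within each line (13.6% lower, 24.4% higher). The estimates were -1.75 ± 0.31 for S100P (limma adjusted p = 0.0047), -1.62 ± 0.21 for S100A3 (0.00141), -1.39 ± 0.27 for S100A16 (0.00681) and -0.68 ± 0.20 for S100A11 (0.0356). S100A2 was -1.13 ± 0.50 (0.119), S100A6 -0.58 ± 0.35 (0.231) and S100A4 0.37 ± 0.24 (0.253). For S100A14, under 1 RPKM in Panc-1, where log2(RPKM + 1) leaves little room for a change, the estimate of -1.78 ± 0.44 is a description of where it is expressed. The median of the 7, S100A3 included, was -1.13, against 0.09 for the genes that passed the filter within each line. Over all genes the median was 0.07, and -0.10 with centred libraries, where the share of higher calls over all genes went from 61.6 to 44%. S100A10, no member, went the other way (0.54 ± 0.18, adjusted p = 0.0471).

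S100A16 and S100P kept this call without any 1 of the 12 libraries, as did S100A3, whose estimate is a description. S100A11 lost it without AsPC-1 after 1 h (-0.54) or 24 h of ANG (-0.51) and without any of the 6 treated Panc-1 libraries (-0.58 to -0.78), with limma adjusted p from 0.0642 to 0.154. With the mean of 1 h and 5 h in place of 1 h, an alternative chosen after seeing the data, S100A2 passed beside these 4 and S100A14 (43.6% of all genes did, 18.1% lower); the S100A2 value was -1.29 ± 0.44 (adjusted p = 0.0464).

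**Figure D4:**
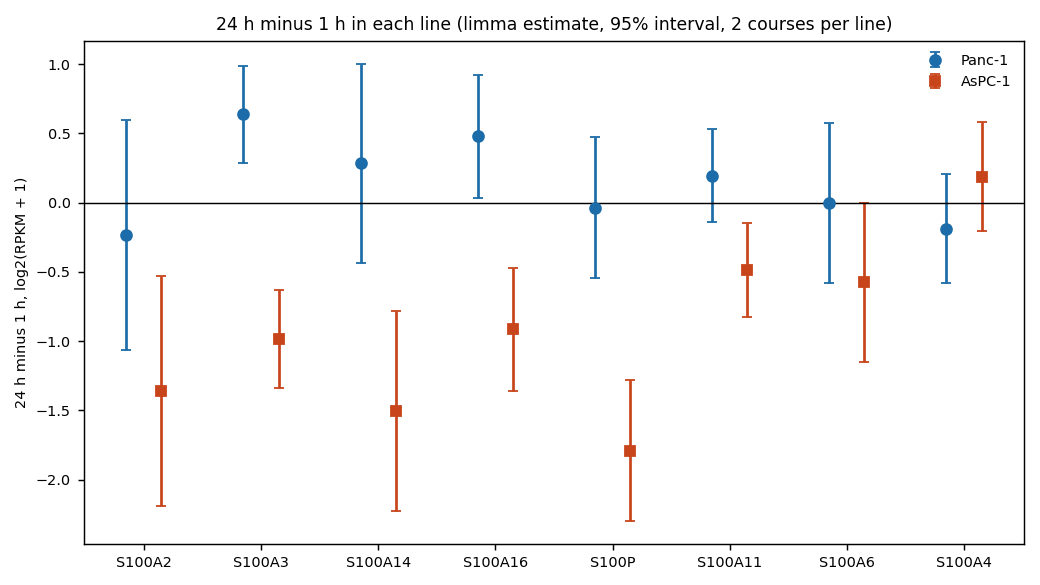
Estimate of 24 h minus 1 h on the log2(RPKM + 1) scale with its 95% interval from limma, for each member in Panc-1 (circles) and AsPC-1 (squares), 2 courses per line. All members but S100A4 have AsPC-1 intervals wholly below 0, before adjustment for the number of genes, and of the Panc-1 intervals those of S100A3 and S100A16 are wholly above 0.

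The proteins that S100 dimers dock onto were described from a list of 14 genes, all of them tested. Of the 13 that passed the filter within each line, 6 were higher and 5 lower in AsPC-1 (64% of all such genes differed; median 0.22, against -0.10 for those genes). Ezrin (EZR), the membrane-cytoskeleton linker bound by S100P, was between 107 and 149 RPKM in Panc-1 libraries and between 284 and 856 RPKM in AsPC-1 libraries (2.01 ± 0.18, limma adjusted p = 1.6e-05). Annexin A6 (ANXA6) was between 42.7 and 53.7 RPKM in Panc-1 libraries and between 0.06 and 0.19 RPKM in AsPC-1 libraries; it passed the filter through Panc-1 alone. S100PBP, a nuclear binding partner of S100P, was between 12.9 and 17.4 RPKM in Panc-1 libraries and between 2.09 and 6.25 RPKM in AsPC-1 libraries (-1.84 ± 0.16), and the scaffold IQGAP1 was lower in AsPC-1 as well (-1.10 ± 0.10).

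From 1 h to 24 h in AsPC-1, 3 of the 14 partners rose and 4 fell, where 24.8% of all genes rose and 15.9% fell. EZR fell (-0.93 ± 0.12, limma adjusted p = 0.00101), as 6 S100 members did, and so did ANXA5 (-0.58 ± 0.12). S100PBP rose (0.78 ± 0.12) and so did ANXA2, the partner of S100A10 (0.52 ± 0.12). In Panc-1, 3 partners fell over the same step, where 15.2% of all genes fell and 11.3% rose: ANXA1 (-0.995 ± 0.142), CACYBP (-0.57 ± 0.13) and PPP5C (-0.45 ± 0.13). The step differed between the lines for 8 of the 13 partners that passed the filter within each line, 5 of them with a higher value in AsPC-1. Among these 5, ANXA1 (0.99 ± 0.20), CACYBP (0.90 ± 0.18), S100PBP (0.83 ± 0.17) and PPP5C (0.77 ± 0.19) had the largest values. Of all genes that passed the filter within each line, 38% differed (24.4% higher, 13.6% lower). Against mock and between the ligands, 0 of 14 partners passed the limma test; 6 had an unadjusted p under 0.05 for EGF minus ANG over the 6 pairs.

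Of 7 receptor genes, 5 were tested. The S100 receptor RAGE (AGER) was low, between 0.25 and 0.87 RPKM in Panc-1 libraries and between 0.15 and 0.82 RPKM in AsPC-1 libraries. TLR4, which binds S100A8 and S100A9, was between 0.09 and 0.30 RPKM in Panc-1 libraries and between 2.45 and 5.39 RPKM in AsPC-1 libraries, and passed the filter there alone. Basigin (BSG) was the most abundant, between 179 and 194 RPKM in Panc-1 libraries and between 144 and 165 RPKM in AsPC-1 libraries (-0.28 ± 0.07, limma adjusted p = 0.00473), and MCAM, which passed the filter through Panc-1 alone, was 6.67 to 9.16 RPKM in Panc-1 and 0.06 RPKM at most in AsPC-1. Against mock and between the ligands none of the 5 passed. Over time 1 fell in Panc-1, ALCAM (-0.42 ± 0.10, limma adjusted p = 0.0233), where 15.2% of all genes fell. For the 24 h minus 1 h step the lines differed for NPTN (0.44 ± 0.14). It was 1 of the 3 receptor genes that passed the filter within each line, and 38% of all such genes differed.

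Other EF-hand calcium sensors, 14 genes with calmodulins among them, were listed for comparison. Against mock 1 of 14 passed, CETN2 of the centrosome, which was lower after 5 h of EGF (-0.67 ± 0.15, limma adjusted p = 0.0468). In that comparison 4.22% of all genes passed (3.63% lower). Between the lines 5 were higher and 7 lower in AsPC-1, led by CALML4 (2.33 ± 0.11) and RCN2 (-1.45 ± 0.09). All 14 passed the filter within each line, and of all such genes 64% differed (27.9% higher, 36% lower). For the 24 h minus 1 h step the lines differed for CALM3, a calmodulin gene (1.43 ± 0.20), for the adaptor EFHD2 (-1.01 ± 0.12) and for sorcin (SRI, 0.57 ± 0.11). That was 21.4% of the 14, against 38% of all genes that passed the filter within each line. The median of the 14 was -0.01.

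The genes most like the 3 most variable members were ranked by Pearson's r over the 14 libraries, each line centred on its own mean, among 10876 genes. For S100A2 they were ARPC5L (r = 0.95), THBD (0.93), FAM40B (0.93), SDC1 (0.93) and STK17A (0.93). For S100A14 they were MPRIP (r = 0.98), QSOX1 (0.97), RHOC (0.97), EHD4 (0.97) and RPS6KA4 (0.97). For S100P they were POLR1B (r = 0.98), WDR3 (0.98), UTP14A (0.98), HK2 (0.98) and TMED9 (0.97). No S100 gene was among these 15. Members still varied together in AsPC-1: over its 7 libraries S100A14 had r of 0.94 to 0.99 with each other expressed member but S100A4 (-0.47). In Panc-1, where S100A14 was under 1 RPKM, its r was -0.03 to 0.35. Pairs of the other expressed members in Panc-1 ran from -0.53 (S100A2 with S100A11) to 0.94 (S100A3 with S100A11). Some members thus varied together there too. The 14 points of the ranking share the split of AsPC-1 libraries into 1 h and 5 h against mock and 24 h, so all these values describe likeness only.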

How the data were processed

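RNA sequencing of 14 libraries was used, with groups taken from the labels. The deposited files give log2 RPKM for 23040 genes, a log2 value computed by the authors, per the file headers, with hg19 as the build, per the submitters' processing notes. The aligner, counter, annotation version and strand setting were not given in the sources used here. Values were turned back to RPKM, and the lowest log2 value, -8.966, was read as 0. Depth (11.1 to 23.5 M reads) was estimated from how finely values are stepped in genes spanning 150 bp or less, all whole within 0.1; intervals cover the spread between libraries.

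Genes at 1 RPKM or more in 2 libraries (13427) were tested with limma 3.58.1 in R 4.3.3, with a variance trend, on log2(RPKM + 1), which understates changes of low genes; p-values were adjusted by Benjamini-Hochberg over all of them, with a threshold of 0.05. The procedure was tested on simulated data with independent noise, which held no shift shared by the genes of a library. Comparisons with mock used line and condition; ligands were paired within line and time; times were compared within a course. The other alternatives were a pseudocount of 0.1, no filter, rescaled libraries, no trend and leaving out libraries.

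The members and gene lists were chosen with earlier results of these data known. Named genes were all members, other S100 genes reaching 1 RPKM, up to 4 genes per list and comparison past the test with the largest change, and the 5 genes most like each of the 3 most variable members, leaving out unnamed loci, small RNAs and pseudogenes. The lists held S100 partners, S100 receptors, EF-hand sensors, squamous, innate defence and secretory genes, and markers of 7 cell classes. Motif letters were searched in RefSeq promoter windows (GRCh38.p14).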

Additional observations from a re-analysis of the deposited data

Results flagged for a closer look

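Of the members, 5 changed differently in the lines between 1 h and 24 h by a test of that difference (AsPC-1 minus Panc-1, log2, limma), which 36% of all genes passed. The value was -1.78 for S100A14, -1.75 for S100P, -1.62 for S100A3, -1.39 for S100A16 and -0.68 for S100A11. S100A14 was under 1 RPKM in Panc-1 and passed the filter on low values through AsPC-1 alone, so its value describes where it is expressed. S100A3 is the member that passed in both lines, falling in AsPC-1 (-0.99 ± 0.15) and rising in Panc-1 (0.64 ± 0.15). It reached 1 RPKM in AsPC-1 only at 1 h and 5 h, so its line difference is a description too. The other flagged members passed within AsPC-1 and not within Panc-1.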

How the results depend on the processing

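No member that passed a test reversed its direction under the alternatives run for it. Estimates that did not pass changed sign with the scaling: after 24 h of ANG 3 of 8 members were above mock as deposited and 6 when rescaled, from 1 h to 5 h 6 and 8 were higher, from 1 h to 24 h in Panc-1 4 and 6, for EGF minus ANG at 1 h 7 and 6, for its line dependence 6 and 8 (centred libraries), and from 1 h to 24 h over both lines 0 and 1 (upper quartile). The number of members past the test stayed the same in the comparisons recomputed, except the following; the steps within a line and the ligand comparisons within a line or time were added after seeing the data, and the step from the mean of 1 h and 5 h was not recomputed. After 5 h of EGF against mock, 1 member passed, and 0 passed with no filter on low values or with libraries centred on their median; leaving out each library gave 0 to 1. In the line dependence of the 24 h minus 1 h step 5 members passed, 4 did with no filter (S100A14 was lost, adjusted p = 0.0517), and leaving out each library gave 3 to 6. The 3 that remained in the lowest case, without Panc-1 after 1 h of ANG, 1 h of EGF or 24 h of EGF or without AsPC-1 after 1 h of ANG, were S100A16, S100A3 and S100P. Of these, the S100A3 value is a description. For EGF minus ANG over the 6 pairs 0 members passed, and the unadjusted exact sign-flip test gave 3. In the AsPC-1 step from 1 h to 24 h 6 members passed, 5 with no filter and 7 without the variance trend, and leaving out each library gave 2 to 7; in Panc-1 1 passed, and leaving out each gave 0 to 1. For EGF minus ANG at 24 h 0 passed, and leaving out each gave 0 to 2. The 7 members called between the lines, S100A14 among them through the filter, were called in all 19 alternatives.

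Counts over all genes moved more. The count after 5 h of EGF was 567, and 0 to 462 without a library; that after 1 h of EGF was 89, and 0 to 65; that of the 24 h minus 1 h step was 854, and 26 to 730; that of its line dependence was 4838, and 2872 to 5118; that of EGF minus ANG was 21, and 0 to 14. The share of higher calls went from 14.1 to 43.1% after 5 h of EGF and from 31.5 to 54.3% after 1 h with centred libraries. Lines, ligands and times were paired by condition, line or course; the labels give no replicate numbers to block on. Levels of S100A14 in Panc-1, S100A3 in AsPC-1 and S100A2 in Panc-1 mock rest on few reads.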

Other observations

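Genes of epithelial innate defence, 10 listed and 8 tested, are often expressed beside S100A8 and S100A9 in epithelia. Only 4 of these passed the filter within each line, and of those 2 were higher in AsPC-1 and 2 lower (64% of all such genes differed). SLPI, a secreted protease inhibitor, was between 0.60 and 1.41 RPKM in Panc-1 libraries and between 49.4 and 150 RPKM in AsPC-1 libraries (log2 difference 5.55 ± 0.21, limma adjusted p = 5.58e-08), and the iron-sequestering lipocalin LCN2 was 17.3 to 48.0 and 102 to 540 RPKM (3.31 ± 0.51). The chemokine genes CXCL1 (-3.60 ± 0.36) and IL8 (-3.11 ± 0.31) were lower in AsPC-1. For the 24 h minus 1 h step all 4 had a lower value in AsPC-1 than in Panc-1, as did 13.6% of the genes that passed the filter within each line, among them LCN2 (-2.99 ± 0.23, limma adjusted p = 2.11e-04), CXCL1 (-1.59 ± 0.36) and IL8 (-1.52 ± 0.28). SAA1 was 0.97 to 7.04 RPKM in Panc-1, where it rose over the step (1.38 ± 0.29), and 0.07 RPKM at most in AsPC-1. Within AsPC-1, 4 of the 8 tested fell and none rose, where 15.9% of all genes fell and 24.8% rose. Against mock and between the ligands over 6 pairs 0 of 8 passed; 1 had an unadjusted p under 0.05 after 5 h of EGF and 2 did for EGF minus ANG.

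Squamous and epidermal differentiation genes lie around the S100 genes on chromosome 1 or share their use in stratified epithelia. Of 21 listed, 3 were tested. SFN, the epithelial 14-3-3 protein, was between 26.1 and 69.5 RPKM in Panc-1 libraries and between 108 and 463 RPKM in AsPC-1 libraries, with a line dependence of the 24 h minus 1 h step of -2.18 ± 0.22 (limma adjusted p = 5.14e-04). The keratins KRT16 (0.56 to 4.0 RPKM) and KRT17 (0.05 to 2.78 RPKM) passed the filter in AsPC-1 alone, and KRT17 fell there over the step (-0.91 ± 0.16). Secretory genes of adenocarcinoma, 10 listed, were higher in AsPC-1 for 6 of the 7 that passed the filter within each line, led by TSPAN8 (6.25 ± 0.25) and CEACAM6 (6.20 ± 0.14). Of all genes that passed the filter within each line, 27.9% were higher. The 24 h minus 1 h step of the secretory genes was not uniform. Within AsPC-1, 3 fell, TFF1 (-1.26 ± 0.11), AGR2 (-1.01 ± 0.26) and LGALS4 (-0.64 ± 0.11), and CEACAM6 rose (0.57 ± 0.09). Over all genes 15.9% fell there and 24.8% rose.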
